A study of Mus musculus with 2 samples.

Results

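The genes described here build and load MHC class I, the cell surface complex that shows pieces of a cell's own proteins to T cells and NK cells. They are the classical heavy chains H2-K1 and H2-D1, their light chain B2m, the non-classical heavy chains H2-Q6, H2-Q7 and H2-T23, the peptide transporter chain Tap1, the loading factor Tapbp and the immunoproteasome subunits Psmb8 and Psmb9. They were chosen by symbol, as 10 of the 28692 genes listed, and all 10 were found. Their transcripts were followed across 6 classes of peritoneal cells: macrophages, Cd209a cells, B-1 cells, B-2 cells, T cells and NK cells. No marker that defined a class was one of the 10 genes.

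The cells came from the peritoneal cavity of germ-free male C57BL/6 mice aged 10 weeks. One library held Xbp1dIEC cells, in which the stress response factor Xbp1 is deleted from the intestinal epithelium, and 1 held WT cells. Each library pooled 4 mice of its genotype, so differences between mice were not recorded and there is 1 sample per genotype. Xbp1 itself stood at 118 CPM (counts per 1000000 UMIs) in Xbp1dIEC and 109 in WT macrophages, at 43.8 and 25.9 in B-1 cells (log2 ratio of Xbp1dIEC over WT 0.74, 95% counting interval 0.43 to 1.05) and at 25.3 and 46.1 in B-2 cells (-0.84, -1.71 to -0.03). These values do not check the label, because the deleted tissue was not sampled. The promoter that drives the deletion is not named in the sources used here, every mouse was germ-free, and no difference between the libraries has a replicate check or a test.

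MHC class I heavy chains fold with B2m in the endoplasmic reticulum and leave for the surface once a peptide is bound. Proteasomes cut the peptides, Psmb8 and Psmb9 replace standard catalytic subunits when the immunoproteasome forms, the TAP transporter carries peptides across the membrane, and tapasin, the product of Tapbp, holds empty heavy chains beside the transporter. CD8 T cells read the peptides, and NK cells are restrained by receptors that bind class I. Interferons are known to raise many of these genes.

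Of the genes, 9 lie on chromosome 17, and B2m lies on chromosome 2. On GRCm38, Psmb9 (34181987 to 34187764, minus strand), Tap1 (34187553 to 34197225, plus strand) and Psmb8 (34197721 to 34201454, plus strand) are neighbours, and the first bases of Psmb9 and Tap1 overlap. H2-K1 (33996017 to 34000347) and Tapbp (33915899 to 33929292) lie on one side of them. H2-D1 (35262730 to 35267499), H2-Q6 (35424850 to 35430055), H2-Q7 (35439155 to 35443773) and H2-T23 (36029773 to 36032855) lie on the other. The upstream stretches of the 4 heavy chains that share a layout are shown with that of B2m, because these genes stood side by side in most comparisons below. The sequences are from RefSeq on GRCm38.p6 and end before the RefSeq start of the gene. For H2-D1 the annotation used for the positions above starts the gene upstream of the RefSeq start, so its stretch lies inside those positions. Capitals mark the palindrome GGGATTCCC or its longer form with a further G in front and a further C behind (the shorter lies inside the longer), AANNGAAA, TGACG and CCAAT, each searched on both strands. These letters belong to the element types known in class I promoters: a palindrome of the NF-kappaB type, an interferon response type, a cAMP response type and a CCAAT box.
H2-K1, chr17:34000353-34000464, minus strand: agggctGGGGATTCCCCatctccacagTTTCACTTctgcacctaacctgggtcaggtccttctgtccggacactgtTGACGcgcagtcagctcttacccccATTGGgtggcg
H2-D1, chr17:35262917-35263051, plus strand: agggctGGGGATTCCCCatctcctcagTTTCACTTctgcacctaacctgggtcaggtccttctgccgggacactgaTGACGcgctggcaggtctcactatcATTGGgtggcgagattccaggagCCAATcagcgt
H2-Q6, chr17:35424671-35424805, plus strand: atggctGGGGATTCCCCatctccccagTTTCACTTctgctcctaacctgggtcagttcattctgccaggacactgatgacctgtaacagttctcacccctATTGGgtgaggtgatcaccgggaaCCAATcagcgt
H2-Q7, chr17:35439017-35439149, plus strand: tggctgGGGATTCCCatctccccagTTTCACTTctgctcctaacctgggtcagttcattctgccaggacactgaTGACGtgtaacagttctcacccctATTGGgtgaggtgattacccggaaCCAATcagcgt
B2m, chr2:122147544-122147644, plus strand: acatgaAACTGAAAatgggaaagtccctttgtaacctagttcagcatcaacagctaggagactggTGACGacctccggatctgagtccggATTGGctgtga

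The longer palindrome occurred in 6 of 27025 promoters of the same length (0.0222%), among them those of H2-K1, H2-D1 and H2-Q6. The shorter form occurred in 0.37% and was also present for H2-Q7. AANNGAAA (24.2% of promoters) was present for all 5 heavy chains and B2m, and TGACG (21.0%) for all of those except H2-Q6 and H2-T23. CCAAT (37.9%) was present for 9 of the 10 genes and missing from the window of Psmb8. These are letter matches in a window of 250 bases before to 50 after the start, and say nothing of binding.

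The files held 6246 barcodes and 49703442 UMIs for Xbp1dIEC, against 6204 barcodes and 56229330 UMIs for WT. After filters, 6117 Xbp1dIEC and 6055 WT cells remained, and 68.3% and 66.3% of them passed a gate. The gates gave 2971 and 2999 macrophages, 67 and 66 Cd209a cells, 750 and 444 B-1 cells, 141 and 216 B-2 cells, 218 and 267 T cells, and 29 and 21 NK cells, with Xbp1dIEC first in each pair. Macrophages were sequenced less deeply in Xbp1dIEC (median 7912 UMIs per cell) than in WT (9876), with a median mitochondrial share of 3.46% against 2.96%. For macrophages, NK cells and Cd209a cells, marker genes that no gate used fitted the class names. The macrophage genes C1qa, C1qb, C1qc, Alox15, Prg4 and Cd5l summed to 17231 and 18962 CPM in macrophages. The cytotoxic genes Nkg7, Gzma, Prf1 and Ccl5 summed to 23541 and 20921 CPM in NK cells, of which Ccl5 was 16720.5 and 15592. In T cells these 4 summed to 3617 and 2951 CPM. Mgl2 and Ear2 summed to 971 and 666 CPM in Cd209a cells. B-1, B-2 and T cells had no such check. The libraries shared 58 barcodes, 19 of them in gated cells. Levels below are CPM of UMIs summed over a class, and every 95% interval covers counting error only. A lower CPM can reflect less RNA of the gene or more of other RNA per cell.

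H2-K1, a classical heavy chain, had its highest level in NK cells and its lowest in B-1 cells. It stood at 601 CPM in Xbp1dIEC and 653 in WT macrophages, at 611 and 772 in Cd209a cells, and at 463 and 578 in B-1 cells. It stood at 772 and 918 CPM in B-2 cells, at 1267 and 1197 in T cells, and at 2181 and 2193 in NK cells. The order of the classes was the same in both libraries, from NK through T, B-2, Cd209a and macrophage to B-1, and only Cd209a cells and macrophages of Xbp1dIEC overlapped in their intervals. The highest class exceeded the lowest by 4.71 times in Xbp1dIEC and 3.79 times in WT.

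H2-D1, the other classical heavy chain, was ordered differently, with macrophages and Cd209a cells near the top. It stood at 2313 CPM in Xbp1dIEC and 2529 in WT macrophages, at 2008 and 2858 in Cd209a cells, and at 1023 and 1397 in B-1 cells. It stood at 1508 and 1820.0 CPM in B-2 cells, at 1820.0 and 1869 in T cells, and at 3154 and 3659 in NK cells. NK cells were highest and B-1 cells lowest in both libraries. In Xbp1dIEC the interval of Cd209a cells overlapped that of T cells, and in WT those of T and B-2 cells overlapped.

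The share of H2-K1 in the UMIs of the classical pair followed from these levels. It was 20.6% of the pair in Xbp1dIEC and 20.5% in WT macrophages, against 41.1% and 39.0% in T cells and 40.9% and 37.5% in NK cells. B-1 cells (31.2% and 29.3%) and B-2 cells (33.9% and 33.5%) lay between, and Cd209a cells (23.3% and 21.3%) lay near macrophages. Reads were taken from the 3′ end, 1 UMI per captured transcript, so these counts do not scale with transcript length, and the capture of each gene was not measured.

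B2m, the light chain shared by all heavy chains, varied less between classes than H2-K1 or H2-D1. It stood at 2333 CPM in Xbp1dIEC and 2596 in WT macrophages, at 1972 and 2527 in Cd209a cells, and at 1473 and 1682 in B-1 cells. It stood at 2014 and 2043 CPM in B-2 cells, at 2837 and 2868 in T cells, and at 3624 and 3735 in NK cells. NK, T and macrophage were the 3 highest classes in both libraries. The highest exceeded the lowest by 2.46 times in Xbp1dIEC and 2.22 times in WT.

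**Figure D1:**
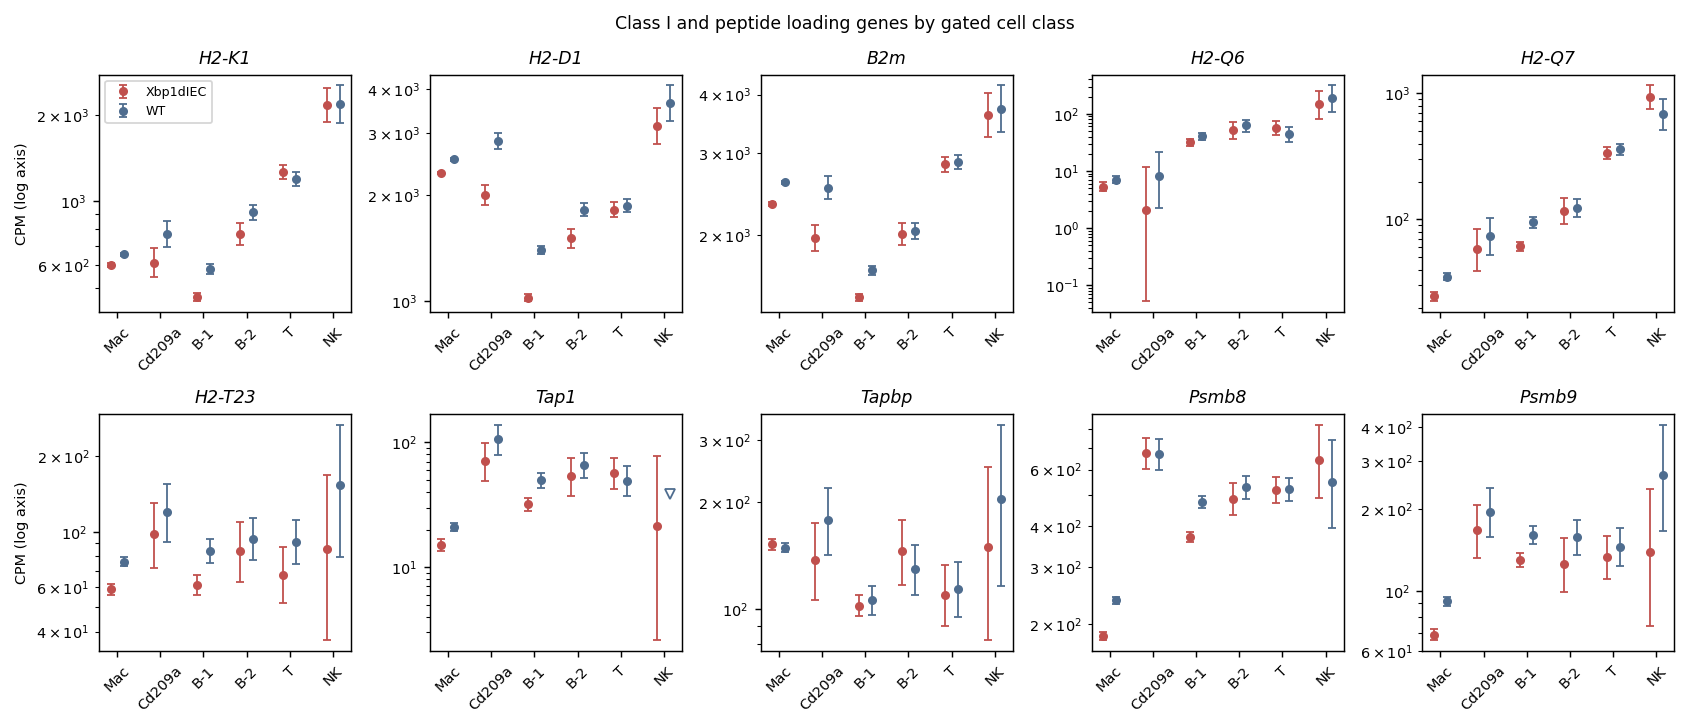
Level of each gene in CPM (log axis) by cell class, with Xbp1dIEC in red left of WT in blue; bars are exact 95% Poisson intervals, and the open triangle is the limit of 3 counts for Tap1 in WT NK cells, which had 0 UMIs. NK cells are highest for H2-K1, H2-D1, B2m and H2-Q7, and macrophages are lowest for Psmb8 and Psmb9.

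The non-classical heavy chains had fewer UMIs than H2-K1 and H2-D1 in every class. H2-Q7, which encodes a Qa-2 antigen, stood at 24.5 CPM in Xbp1dIEC and 35.2 in WT macrophages, at 58.4 and 74.5 in Cd209a cells, and at 61.2 and 94.7 in B-1 cells. It stood at 117 and 124 CPM in B-2 cells, at 339 and 361 in T cells, and at 941 and 688 in NK cells. The class order was the same in both libraries, and NK cells exceeded macrophages by 38.4 times in Xbp1dIEC and 19.5 times in WT. Only the neighbours B-1 and Cd209a overlapped.

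H2-Q6, a near copy of H2-Q7 that also encodes a Qa-2 antigen, stood at 5.33 CPM in Xbp1dIEC and 7.02 in WT macrophages, at 31.6 and 40.2 in B-1 cells and at 52.2 and 62.6 in B-2 cells. It stood at 56.7 and 43.9 CPM in T cells and at 149.7 and 191 in NK cells. Cd209a cells held 1 and 4 UMIs. H2-Q7 made up 82.1% and 83.4% of the pair's UMIs in macrophages and 85.7% and 89.2% in T cells, but 65.9% and 70.2% in B-1 cells. In the annotation, H2-Q6 and H2-Q7 transcripts share 168 windows of 98 bases, the length of the cDNA read, which is 8.45% of those of H2-Q6 and 11.8% of those of H2-Q7. None lies in the last 500 bases of either, where 3′ reads fall. There, 7.2% of the windows of H2-Q6 are shared with other genes, among them H2-Q4. How the counting treated reads that fit both copies is not given in the sources used here, so the split between them is uncertain.

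H2-T23, the heavy chain of Qa-1, which presents leader peptides to the NK receptor CD94/NKG2A, was the most even of the heavy chains. It stood at 58.9 CPM in Xbp1dIEC and 75.9 in WT macrophages, at 98.0 and 120.02 in Cd209a cells, at 61.5 and 84.0 in B-1 cells and at 83.9 and 93.9 in B-2 cells. It stood at 67.6 and 91.4 CPM in T cells and at 85.5 and 153 in NK cells. All neighbours in its order overlapped in both libraries. In the last 500 bases of H2-T23, 10.4% of the windows of 98 bases are shared with Hook2 or Rab33b.

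Among the genes that cut, carry and load peptides, macrophages were lowest for both immunoproteasome subunits. Psmb8 stood at 183 CPM in Xbp1dIEC and 237 in WT macrophages, at 675 and 668 in Cd209a cells, and at 370.3 and 476 in B-1 cells. It stood at 486 and 529 CPM in B-2 cells, at 519.8 and 521 in T cells, and at 641 and 548 in NK cells. Cd209a cells were highest in both libraries, with an interval that overlapped that of NK cells.

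Psmb9 stood at 68.9 CPM in Xbp1dIEC and 91.6 in WT macrophages, at 167 and 195 in Cd209a cells, at 129.8 and 161 in B-1 cells and at 125 and 157 in B-2 cells. It stood at 133 and 145 CPM in T cells and at 139 and 268 in NK cells. Apart from macrophages, which lay below the others, all neighbours overlapped.

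Tap1, a chain of the TAP transporter, was the scarcest gene of peptide supply. It stood at 15.0 CPM in Xbp1dIEC and 21.1 in WT macrophages, at 70.9 and 106 in Cd209a cells, at 31.8 and 49.9 in B-1 cells and at 53.8 and 66.1 in B-2 cells. It stood at 56.7 and 49.3 CPM in T cells. NK cells held 2 UMIs in Xbp1dIEC and 0 in WT, where a count of 0 allows up to 38.2 CPM taken as 3 counts, and up to 47.0 by the exact interval, so Tap1 in NK cells was not measurable at this depth.

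Tapbp, the tapasin gene, differed by 1.49 times between the highest and lowest class in Xbp1dIEC and by 1.92 times in WT. It stood at 152 CPM in Xbp1dIEC and 149 in WT macrophages, at 138 and 178 in Cd209a cells, at 103 and 106 in B-1 cells and at 146 and 129.6 in B-2 cells. It stood at 110.1 and 114 CPM in T cells and at 149.7 and 204 in NK cells. All neighbours in its order overlapped. The intervals of macrophages (147 to 157 in Xbp1dIEC and 145 to 154 in WT) nevertheless lay above those of B-1 cells (95.6 to 110 and 96.5 to 116).

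Each immunoproteasome subunit was also set against the standard subunit it replaces, Psmb5 for Psmb8 and Psmb6 for Psmb9. In macrophages Psmb8 was 61.9% of its pair in Xbp1dIEC (exact Clopper-Pearson interval 60.7 to 63.0) and 61.9% in WT (61.0 to 62.8). In the other classes it was 75.6% to 78.8% in Xbp1dIEC and 72.9% to 81.0% in WT. Psmb9 was 32.2% of its pair in Xbp1dIEC and 34.3% in WT macrophages, against 51.2% and 53.1% in B-1 cells and 41.6% and 47.0% in B-2 cells. It was 48.2% and 49.0% in Cd209a cells, 44.7% and 45.8% in T cells, and 30.2% (17.2 to 46.1) and 45.7% (30.9 to 61.0) in NK cells, whose intervals overlapped those of macrophages. The pair share of Psmb10, the other inducible subunit, was 61.8% in Xbp1dIEC and 59.1% in WT macrophages, and 61.2% and 62.4% in B-1 cells.

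**Figure D2:**
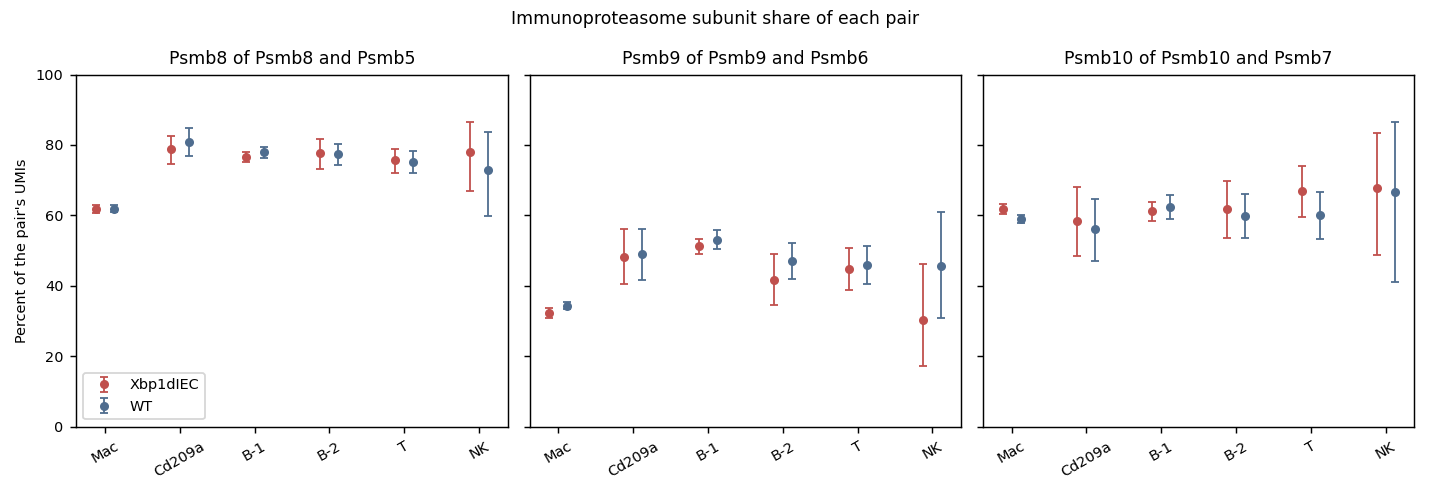
Share of the UMIs of each catalytic pair that came from the inducible subunit, in percent, by cell class, with Xbp1dIEC in red left of WT in blue; bars are exact 95% intervals. Macrophages lie at 61.9% in both libraries for Psmb8, below the other classes except for the wide interval of WT NK cells, while Psmb10 shows no such gap.

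Between the libraries, the 10 genes were mostly lower in Xbp1dIEC macrophages, by small amounts. Of the 10, 9 had a log2 ratio of Xbp1dIEC over WT (1 CPM added) below 0, and in all 9 of these the interval lay below 0. Of all genes with 10 or more UMIs in macrophages, 59.9% were below 0, and 25.1% had an interval below 0. Among genes with 100 or more UMIs, 29.9% had such an interval. The median over the 10 genes was -0.35, against -0.05 over all genes with 10 or more UMIs. None was lower by 1.5-fold or more, where 2.35% of all genes were. The classical chains and B2m differed least, with -0.12 (-0.15 to -0.09) for H2-K1, -0.13 (-0.14 to -0.11) for H2-D1 and -0.15 (-0.17 to -0.14) for B2m.

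The genes of lower level had larger ratios in macrophages. H2-Q7 was at -0.51 (-0.65 to -0.36), Tap1 at -0.46 (-0.64 to -0.28), Psmb9 at -0.40 (-0.49 to -0.32), Psmb8 at -0.37 (-0.42 to -0.31) and H2-T23 at -0.36 (-0.46 to -0.27). H2-Q6 was at -0.34 (-0.62 to -0.06). Tapbp alone was above 0, at 0.03 (-0.03 to 0.09). The median was -0.22 when cells were gated after thinning to 2000 UMIs and -0.23 with 10 CPM added. Depth and cell cycle genes were also lower in Xbp1dIEC macrophages, where the cell cycle list summed to 189 CPM, against 421 in WT. Without cycling cells, those with 2 or more UMIs of that list, the median was -0.27. The part of depth and cell cycle in the difference was not tested beyond these values. The list was higher in Xbp1dIEC in Cd209a cells (348 against 180 CPM), B-1 cells (134 against 110) and B-2 cells (61.7 against 25.2). It was lower in T cells (62.1 against 143) and NK cells (0 against 25.5). None of the 10 was higher by 1.5-fold or more in macrophages, where 0.26% of all genes were.

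In B-1 cells, the innate-like B cells of body cavities, all 10 genes were below 0, where 49.6% of all genes were, and in 9 the interval lay below 0, where 10.4% of all genes had such an interval. Of genes with 100 or more UMIs, 14.4% had such an interval. The median was -0.35, against 0.00 over all genes. H2-Q7 (-0.62, -0.81 to -0.43) and Tap1 (-0.63, -0.90 to -0.37) were lower by 1.5-fold or more, 2 of 10, where 4.39% of all genes were, and 2.3% of those with 100 or more UMIs. H2-Q7 was no longer past 1.5-fold in 4 of 11 alternatives, nearest 0 at -0.45 under a stricter filter on cells, and Tap1 in 2 of 12, with -0.52 when 10 CPM was added. H2-D1 was at -0.45 (-0.50 to -0.40), H2-T23 at -0.44 (-0.64 to -0.24), Psmb8 at -0.36 (-0.44 to -0.28), H2-Q6 at -0.34 (-0.62 to -0.05), H2-K1 at -0.32 (-0.39 to -0.25) and Psmb9 at -0.31 (-0.45 to -0.16). B2m was at -0.19 (-0.23 to -0.15), less than either classical heavy chain, and it was 47.3% of the UMIs of B2m and the 5 heavy chains in Xbp1dIEC, against 43.4% in WT. Tapbp was at -0.05 (-0.22 to 0.12). Genes of the B-1 gate differed too, so the gate may not have taken like cells in both libraries. Zcwpw1, with 4901 UMIs, was higher in Xbp1dIEC (0.74, 0.65 to 0.84). Zbtb32 (-0.33), Cd5 (-0.83) and Spn (-0.33) were lower, and the interval of Bhlhe41 (0.16) included 0. The part of the gate in the difference was not tested.

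In Cd209a cells the classical chains and B2m were lower in Xbp1dIEC, while Psmb8 was not. H2-D1 was at -0.51 (-0.63 to -0.39), B2m at -0.36 (-0.48 to -0.23) and H2-K1 at -0.34 (-0.56 to -0.11), the 3 genes of 9 measured whose interval lay below 0, where 4.86% of all genes had such an interval. Of genes with 100 or more UMIs, 12.7% had such an interval. Psmb8 was at 0.02 (-0.21 to 0.24), and Psmb9, Tap1, Tapbp, H2-Q7 and H2-T23 had intervals that included 0. Of the 9, 8 were below 0, where 52.8% of all genes were, with a median of -0.35 against -0.06. None was lower by 1.5-fold or more, where 17% of all genes were, and 4.03% of those with 100 or more UMIs. Tap1 was at -0.57 (-1.23 to 0.08) and passed 1.5-fold in 5 of 12 alternatives, down to -1.25 when cells were gated after thinning, where H2-Q7 was at 0.35 against -0.35 in the gated cells. With 67 and 66 cells, the limits for the scarcer genes were wide.

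Macrophage RNA also differed between the libraries in cells outside the macrophage gate. The 6 macrophage genes named above, all 6 with UMIs, summed to 233 CPM in Xbp1dIEC and 689 in WT Cd209a cells, to 231 and 431 in B-1 cells and to 217 and 359 in B-2 cells, but to 452 and 377 in T cells. Leaving out cells with 5 or more of those UMIs, a choice made after these sums were seen, kept 63 and 54 Cd209a cells and 665 and 331 B-1 cells, with sums of 189 and 323 and of 163 and 266 CPM. The median was then -0.42 in Cd209a cells and -0.33 in B-1 cells, with H2-D1 at -0.56 and -0.43. In B-2 cells the sums of macrophage genes were then 211 and 330 CPM. In T cells, with 210 and 259 cells kept, these sums were 204 and 322 CPM, now lower in Xbp1dIEC.

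B-2 cells, the conventional B cells, had 2 genes of 10 with an interval below 0. H2-D1 was at -0.27 (-0.38 to -0.16) and H2-K1 at -0.25 (-0.41 to -0.09), where 2.78% of all genes had an interval below 0, and all other intervals included 0, with B2m at -0.02 (-0.12 to 0.08). Of genes with 100 or more UMIs, 5.05% had an interval below 0. Of the 10, 9 were below 0, where 53.8% of all genes were, with a median of -0.21 against -0.04. None was lower by 1.5-fold or more, where 13.4% of all genes were, and 1.81% of those with 100 or more UMIs. The median was -0.08 when cells were gated after thinning, with H2-D1 then at -0.22 (-0.40 to -0.04) and H2-K1 at -0.11 (-0.36 to 0.13). With every gate minimum raised by 2 UMIs, which left 18 Xbp1dIEC and 50 WT B-2 cells, H2-K1 was at -0.01 (-0.43 to 0.40) and H2-D1 at -0.29 (-0.59 to 0.00).

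In T cells, no gene had an interval clear of 0, where 2.95% of all genes had one below 0. Of genes with 100 or more UMIs, 5.08% had one below 0. B2m was at -0.02 (-0.09 to 0.06), H2-D1 at -0.04 (-0.13 to 0.06), H2-K1 at 0.08 (-0.03 to 0.20) and Psmb8 at 0.00 (-0.18 to 0.17). H2-T23 was at -0.43 (-0.90 to 0.04), and at -0.60 by the mean of each cell's CPM, and H2-Q6 at 0.36 (-0.22 to 0.95). Of the 10, 7 were below 0, where 49% of all genes were, and the median was -0.03 against 0.01 over all genes. None was lower by 1.5-fold or more, where 10.4% of all genes were, and 1.31% of those with 100 or more UMIs. For B2m and H2-D1 the intervals lay within -0.13 to 0.06 on the log2 scale.

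In NK cells, with 29 and 21 cells, no interval was clear of 0 either, where 2.68% of all genes had one below 0. Of genes with 100 or more UMIs, 6.99% had one below 0. H2-D1 was at -0.21 (-0.45 to 0.03), B2m at -0.04 (-0.27 to 0.19), H2-K1 at -0.01 (-0.31 to 0.29) and H2-Q7 at 0.45 (-0.05 to 0.97). Of 9 measured, 7 were below 0, where 46.7% of all genes were, and H2-T23 (-0.83, -2.31 to 0.57) and Psmb9 (-0.94, -2.05 to 0.12) were lower by 1.5-fold or more, where 15.9% of all genes were. Psmb9 was at -0.57 when cells were gated after thinning. The median was -0.21, and -0.03 when cells were gated after thinning. One WT NK barcode held 884 class II UMIs, and leaving it out, a choice made after it was seen, gave a median of -0.24.

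**Figure D3:**
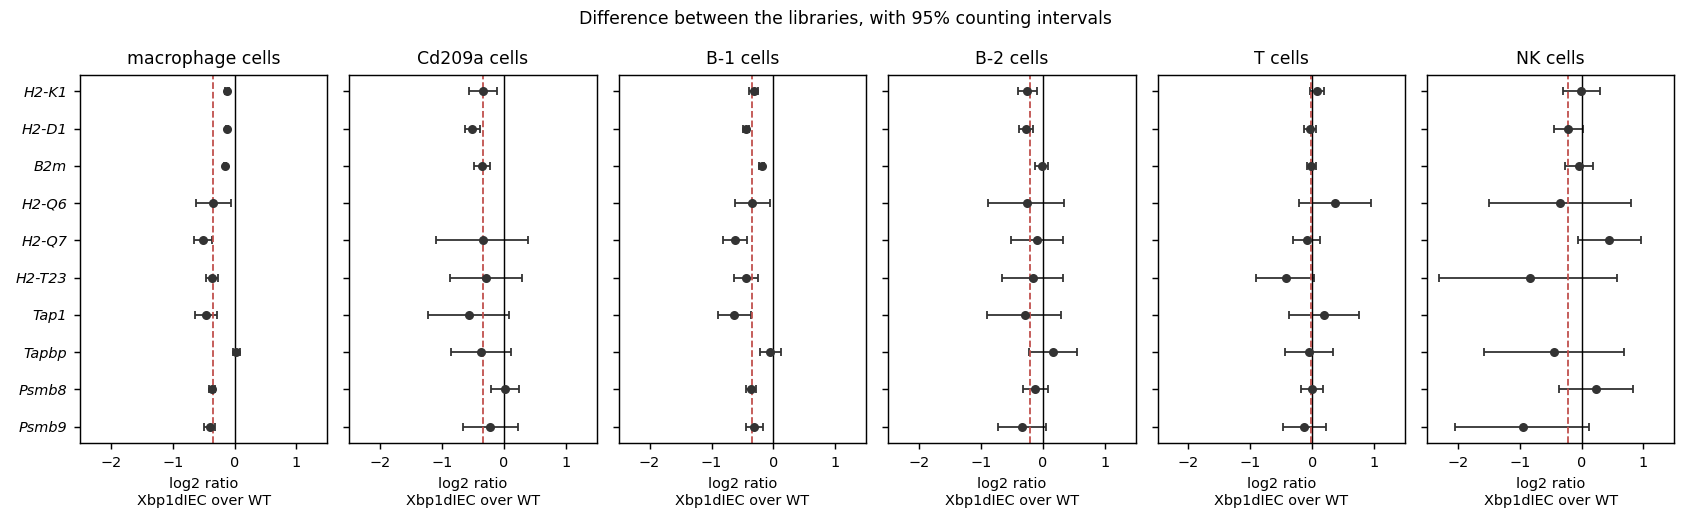
Log2 ratio of Xbp1dIEC over WT for each gene with 10 or more UMIs, by cell class, with exact 95% counting intervals; the solid line is 0 and the dashed red line is the median over the genes shown. Medians lie at -0.35 in macrophages, Cd209a cells and B-1 cells, at -0.21 in B-2 and NK cells and at -0.03 in T cells.

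Macrophages were divided by subset markers. Cells with a Gata6 or Timd4 UMI, markers of long-lived large macrophages, and fewer than 3 Folr2 and Retnla UMIs numbered 1844 in Xbp1dIEC and 1751 in WT. There H2-K1 stood at 623 CPM in Xbp1dIEC and 629 in WT, a log2 ratio of -0.01 (-0.05 to 0.03). In cells with 10 or more Folr2 and Retnla UMIs, 460 in Xbp1dIEC and 476 in WT, it stood at 569 and 688 CPM, a ratio of -0.27 (-0.35 to -0.20). H2-D1 was at -0.10 (-0.12 to -0.08) in the cells with Gata6 or Timd4 and at -0.14 (-0.18 to -0.10) in those with Folr2 and Retnla. B2m was at -0.08 (-0.11 to -0.06) in the cells with Gata6 or Timd4 and at -0.26 (-0.29 to -0.22) in those with Folr2 and Retnla. Psmb8 was at -0.36 in both, with 171 against 221 CPM and 215 against 275 CPM. No difference between subsets was tested.

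B-1 cells were split by which of 2 gene sets had more UMIs. Those with more Fbxw13, Prkar2b and Fgd2 UMIs, 408 in Xbp1dIEC and 142 in WT, had H2-D1 at 939 and 1293 CPM, a log2 ratio of -0.46 (-0.54 to -0.38). Those with more Ahnak2, Phgdh and Ass1 UMIs, 243 in Xbp1dIEC and 240.0 in WT, had H2-D1 at 1183 and 1434 CPM, a ratio of -0.28 (-0.35 to -0.21). H2-Q7 was at -0.79 (-1.12 to -0.46) in the cells with more Fbxw13 and at -0.21 (-0.48 to 0.05) in those with more Ahnak2. The proportions of the sets differed between the libraries, and both classical heavy chains were lower in Xbp1dIEC within each of the 2. The part of these proportions in the difference over all B-1 cells was not tested.

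Among T cells with a Cd8a or Cd8b1 UMI, 68 in Xbp1dIEC and 89 in WT, Tap1 stood at 66.96 and 26.1 CPM, from 22 and 11 UMIs, a ratio of 1.33 (0.25 to 2.47). H2-D1 stood there at 1567 and 1846 CPM, a ratio of -0.24 (-0.40 to -0.07). In T cells without such UMIs, H2-D1 was at 0.06 (-0.06 to 0.17) and Tap1 at -0.32 (-1.03 to 0.37).

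**Figure D4:**
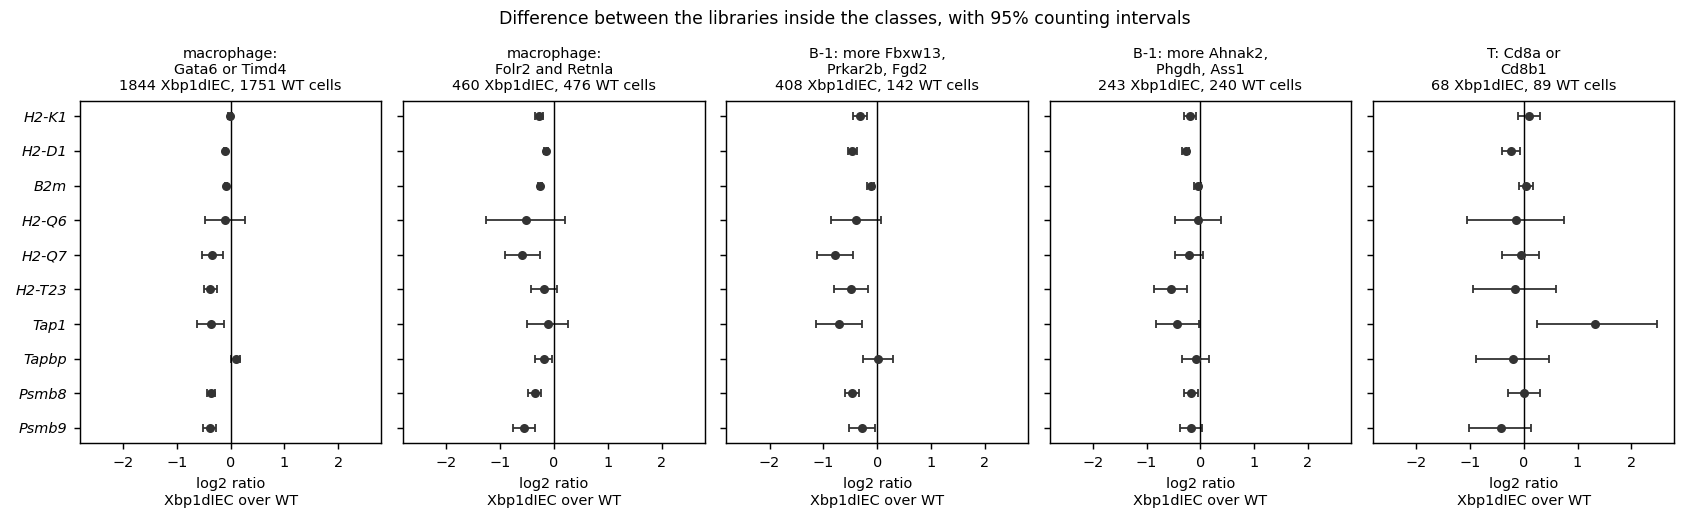
Log2 ratio of Xbp1dIEC over WT for each gene inside 5 subsets of the classes, with exact 95% counting intervals and cell numbers above each panel. H2-K1 lies at -0.01 in macrophages with Gata6 or Timd4 and at -0.27 in those with Folr2 and Retnla; H2-Q7 lies at -0.79 in B-1 cells by Fbxw13 and at -0.21 in those by Ahnak2.

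The per-cell values of H2-K1, H2-D1 and B2m together were lower in Xbp1dIEC at every percentile taken in each class except T cells. In T cells the 25th and 75th percentiles were higher, at 47.6 and 72.6 in Xbp1dIEC against 47.1 and 69.9 in WT. The summed UMIs of H2-K1, H2-D1 and B2m per 10000 UMIs of a cell had a median of 28.4 in Xbp1dIEC and 35.0 in WT B-1 cells. The 5th, 25th, 75th and 95th percentiles were 15.3, 22.3, 36.6 and 55.3 in Xbp1dIEC, against 19.1, 27.8, 45.5 and 61.4 in WT. In macrophages the median was 47.7 in Xbp1dIEC and 53.9 in WT, in Cd209a cells 38.4 and 59.5, and in T cells 57.3 and 58.7. In B-2 cells it was 43.3 and 47.4, and in the 29 and 21 NK cells 86.4 and 105. Every gated cell held at least 1 UMI of these 3 genes. Tap1, Psmb8 and Psmb9 together were at 0 UMIs in 634 Xbp1dIEC and 318 WT macrophages, which differ in depth.

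**Figure D5:**
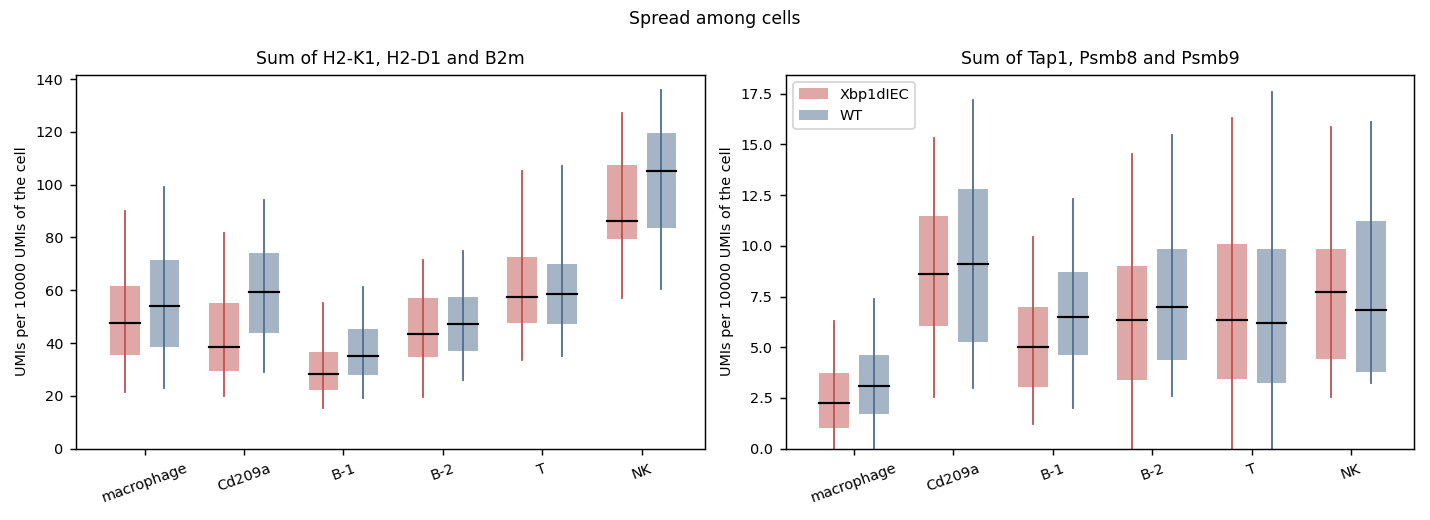
Spread among cells of the summed UMIs of H2-K1, H2-D1 and B2m (left) and of Tap1, Psmb8 and Psmb9 (right), per 10000 UMIs of the cell, with Xbp1dIEC in red left of WT in blue; black lines are medians, boxes the 25th to 75th and thin lines the 5th to 95th percentiles. The classical sum has a median of 28.4 in Xbp1dIEC and 35.0 in WT B-1 cells, and of 57.3 and 58.7 in T cells.

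The wider pathway was read from lists of related genes. Of 11 further proteasome genes, 10 were below 0 in macrophages (median -0.30) and 10 of 11 in B-1 cells (median -0.24), with none past 1.5-fold in either class. All genes had 59.9% below 0 and a median of -0.05 in macrophages, and 49.6% and 0.00 in B-1 cells. Of 9 further loading genes, such as the chaperones Calr, Canx and Pdia3, 8 were below 0 in macrophages (median -0.10), but only 2 of 9 in B-1 cells (median 0.08). In T cells 8 of 11 proteasome genes (median -0.06) and 3 of 9 loading genes (median 0.04) were below 0, and in NK cells 3 of 10 (median 0.27) and 3 of 7 (median 0.48), where 49% of all genes were below 0 in T cells and 46.7% in NK cells. Of the other class I type genes, 8 were measured in B-1 cells, and 5 were below 0. There Cd1d1, which presents lipids, stood at 5.10 CPM in Xbp1dIEC and 9.75 in WT (log2 ratio -0.82), H2-M3, which presents formylated peptides, at 22.04 and 34.5 CPM (-0.62), and Hfe, an iron regulator, at 4.33 and 1.90 CPM (0.88). In B-2 cells H2-Q4 stood at 28.5 and 44.4 CPM (-0.62, with an interval that included 0).

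Of the 15 regulators, 9 were below 0 in macrophages, a share close to the 59.9% of all genes, with a median of -0.03. Genes higher by 1.5-fold or more made up 11.4% of all genes in Cd209a cells, 5.65% in B-1 cells, 9.1% in B-2 cells, 10.9% in T cells and 19.1% in NK cells, and none of the 10 class I genes was among them in any class. In Cd209a cells the median over 13 regulators was -0.56, and the medians of their interval limits were -1.36 and 0.77. Of them 6 were lower by 1.5-fold or more, where 17% of all genes were, and 4.03% of those with 100 or more UMIs. Among the 6, Stat2, Rfxank, Irf1 and Rfxap held only 10, 12, 18 and 19 UMIs over both libraries. Only 1 regulator had an interval below 0. That gene, Ifngr1, a chain of the interferon gamma receptor, stood at 261 CPM in Xbp1dIEC and 422 in WT (-0.69, -1.03 to -0.37). Irf8, a transcription factor, stood at 15.3 and 34.7 CPM in T cells (-1.14, -2.07 to -0.26). In T cells the class I coreceptor chain Cd8a stood at 74.1 and 114 CPM (-0.62, -1.06 to -0.18), and the chaperone Canx at 93.7 and 52.1 CPM (0.84, 0.34 to 1.34). In NK cells the class I receptor Klra4 stood at 492 and 778 CPM (-0.66), and Klra9 at 428 and 204 CPM (1.06). Also past 1.5-fold with 30 or more UMIs in NK cells were Calr (1.55, 0.60 to 2.60) and Pdia3 (1.12, 0.02 to 2.32). Psme2 (0.64) and Klrc2 (0.70) in NK cells passed it too, but with intervals that included 0. The same held for Ifnar1 (-0.76) in Cd209a cells, Ifnar2 (-0.94) in B-2 cells and Rfxap (0.66) in T cells.

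Interferon response genes and class II genes were set beside the 10 genes. The 17 interferon response genes summed to 394 CPM in Xbp1dIEC and 540.0 in WT macrophages, with 15 of 17 below 0, where 59.9% of all genes were. Of them 5 were lower by 1.5-fold or more, where 2.35% of all genes were, with Rtp4 at 59.0 and 93.6 CPM (-0.66), Isg15 at 11.4 and 18.2 (-0.63), Xaf1 at 11.8 and 18.7 (-0.62), Ifit1 at 1.41 and 3.01 (-0.74) and Usp18 at 3.37 and 5.59 (-0.60). They summed to 463 and 693 CPM in Cd209a cells, to 159 and 195 in B-1 cells, to 185 and 259 in B-2 cells, to 270.3 and 291 in T cells and to 192 and 242 in NK cells. In T cells Irf7 stood at 5.45 and 23.8 CPM (-1.94, -3.29 to -0.67). Also past 1.5-fold among the interferon response genes were Irf7 (-0.82) and Xaf1 (-0.59) in B-1 cells, with intervals below 0. Rtp4 (-0.66) and Ifit3 (-0.59) in B-1 cells passed it with intervals that included 0. So did Zbp1 (-0.92) and Xaf1 (-0.68) in B-2 cells and Xaf1 (-0.97) in T cells. Of those with 10 or more UMIs, 9 of 10 in Cd209a cells and 14 of 15 in B-1 cells were below 0. In B-2 cells it was 5 of 9, and in T cells 6 of 9, with a median of -0.08. Of all genes, 52.8%, 49.6%, 53.8% and 49% were below 0 in these classes, in that order. The part of interferon signalling in the levels of the 10 genes was not tested. The 6 class II genes summed to 1489 and 1849 CPM in macrophages, to 80011 and 91988 in Cd209a cells, to 19382 and 23105 in B-1 cells and to 28018 and 32443 in B-2 cells, and in T cells to 3117 and 3848. In NK cells all 6 were lower by 1.5-fold or more in Xbp1dIEC, with Cd74 at -5.23, H2-Eb1 at -5.20, H2-Ab1 at -5.81 and H2-Aa at -6.07, and 884 of the WT UMIs came from the single barcode named above.

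Across the 12 values of class and library, the genes most like the sum of H2-K1, H2-D1 and B2m among 8186 genes were Cdc42ep3 (Pearson r 0.96), Ppp1r18 (0.96), Ubald2 (0.95), Prkar1a (0.94), Cd53 (0.94), Eif4h (0.94), A430005L14Rik (0.94) and Tmem50a (0.93). Those most like the sum of Tap1, Psmb8 and Psmb9 were Tmem173 (0.95), Cnn2 (0.95), Psme1 (0.94), Vrk3 (0.94), Traf1 (0.94), Ms4a4c (0.94), Sigirr (0.94) and Fbl (0.93). Psme1, a subunit of the proteasome activator, was the only one of these from the pathway lists. Among the other class I genes, the classical sum had an r of 0.69 with Tapbp, 0.65 with H2-Q7, 0.55 with H2-T23, 0.37 with H2-Q6, 0.30 with Psmb9 and 0.23 with Psmb8. With Tap1, which was not measurable in NK cells, the r was -0.55. These are descriptions over 12 points that share 2 libraries and their depth.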

How the data were processed

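Cells were captured on the 10x Chromium 3′ v2 system. The values the authors deposited are counts, UMIs per gene and barcode, without normalization. Cell Ranger 2.2.0, Seurat 2.3.0 and mm10 are named per the submitters' processing notes; annotation and barcode filter were not given in the sources used here. A barcode needed at least 500 UMIs, at least 200 genes and a mitochondrial share under 10% (20 Xbp1dIEC and 6 WT left out), and doublets were called per library with scrublet in scanpy 1.11.5 at an expected rate of 5% (109 and 143 removed). Gates took 5 or more UMIs of a marker list with Adgre1, Csf1r, Gata6, Timd4, Vsig4 and Mertk for macrophages, 3 of Cd209a, 5 of a list with Cd79a, Cd79b and Ms4a1 for B cells, 3 of Cd3d, Cd3e, Cd3g and Trac for T cells, and 2 of Ncr1, Klrb1c, Klre1 and Eomes for NK cells, with limits on markers of the other classes. B-1 cells had 2 or more UMIs of Bhlhe41, Zbtb32, Zcwpw1, Cd5 and Spn and none of Fcer2a and Cr2, and B-2 cells the reverse. Gate minimums were set from the markers alone.

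UMIs were summed per class and library. Levels have exact Poisson intervals, and log2 ratios, with 1 CPM added, exact conditional binomial intervals. The calculation was tested on simulated data. All 10 genes were named. Of the wider lists, genes past 1.5-fold with 30 or more UMIs were named, except for a result not reported here; the macrophage and B cell gates each hold a further marker. H2-Bl, H2-K2 and H2-T10 of the lists were not matched. The genes and lists were chosen with earlier results of these data known. Alternatives changed the doublet step, cell filter, gates, total, weighting, added CPM, low count filter, cycling cells and the H2-Q6 and H2-Q7 split. Python 3.11.15 was used.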

Additional observations from a re-analysis of the deposited data

How the results depend on the processing

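No paired analysis was possible because there is 1 library per genotype, and for the same reason no replicate could be left out. The median over the genes stayed between the medians of the genes' interval limits in all 73 alternative values. It ranged from -0.36 to -0.22 in macrophages, from -0.42 to -0.27 in Cd209a cells, from -0.44 to -0.29 in B-1 cells, from -0.25 to -0.08 in B-2 cells, from -0.04 to 0.04 in T cells and from -0.24 to -0.03 in NK cells. It changed sign in T cells only, 3 times. Of 694 values for single genes, 660 stayed within the interval of the main value. Of these 694, 37 changed sign, all for genes whose interval included 0. An interval below 0 came to include it for H2-Q6 in 2 of 9 alternatives in macrophages and 3 of 10 in B-1 cells. In B-2 cells the same happened for H2-K1 in 2 of 11 alternatives and for H2-D1 in 1 of 11. Dropping immunoglobulin, ribosomal and mitochondrial genes from the total moved all ratios by up to 0.08 (Cd209a cells). Gating after thinning kept 1060 Xbp1dIEC and 1102 WT macrophages. Counting intervals leave out differences between mice and between libraries, which 1 pool per genotype cannot show.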

Other observations

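Cells that passed no gate, 1941 in Xbp1dIEC and 2042 in WT, had B cell marker UMIs at the gate's minimum in 1361 and 1572 of them. There H2-K1 stood at 597 CPM in Xbp1dIEC and 749 in WT, H2-D1 at 1343 and 1699, and B2m at 1713 and 2021. H2-Q7 stood at 70.5 and 115 CPM, Tap1 at 33.8 and 49.4, Psmb8 at 363 and 439.9 and Tapbp at 113 and 119. These cells mix classes, and no ratio was formed for them.

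Class II transcripts in lymphocytes outside the B lineage came from few barcodes. Of T cells, 14 of 218 in Xbp1dIEC and 9 of 267 in WT held 10 or more class II UMIs, with up to 632 and 813 in a cell. The NK class held 0 such cells in Xbp1dIEC and 1 in WT, with 884 of its 8778 UMIs, and the class II sum of the NK class was 267 CPM in Xbp1dIEC and 11576 in WT.

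Cycling B-1 cells (2 or more UMIs of cell cycle genes), 20 in Xbp1dIEC and 10 in WT, had H2-Q7 at 193 and 95.1 CPM, from 60 and 15 UMIs, a log2 ratio of 1.02 (0.19 to 1.93), while in B-1 cells that were not cycling it stood at 55.7 and 94.6 CPM, a ratio of -0.75 (-0.95 to -0.55). The difference between these ratios was not tested.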
